A study of Mus musculus with 6 samples.

Results

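The transcripts described here are those of 6 myosin light chains, Myl1, Myl3, Myl4, Myl2, Myl7 and Myl9, and 4 myosin light chain kinases, Mylk, Mylk2, Mylk3 and Mylk4. They make up 10 of the 43629 genes listed in the count files. Positions are given on GRCm38. The genes were chosen by name, as light chains and kinases of atrial, ventricular and smooth muscle, after the fold changes of this same comparison had been seen. They were part of the fit across all genes, and whether each passed its limits is given as a description of that fit and not as evidence. RNA-Seq was performed on primary cardiomyocytes from the ventricles of CD-1 mouse embryos at embryonic day 13.5, with the ventricles of a litter pooled before digestion. Cells received negative siRNA or DNMT1 siRNA (a pool of siRNAs against the maintenance DNA methyltransferase), both at 12 nM, and 3 cultures per treatment were collected after 72 h and sorted magnetically for VCAM1. The sample titles name DNMT1, whereas a treatment tag on the same 3 samples names DNMT3a siRNA, and the titles were followed. The targeted gene Dnmt1 had 2760 to 3447 normalized counts with negative siRNA and 666 to 786 with DNMT1 siRNA, and Dnmt3a was not lower in the latter.

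Each myosin heavy chain carries a pair of small subunits, an essential light chain and a regulatory light chain, which stiffen its lever arm. Phosphorylation of the regulatory chain by a calmodulin-dependent kinase switches smooth muscle myosin on and tunes the force of the heart and skeletal muscle. In the embryonic heart the atrial chains (Myl4 and Myl7) and the ventricular chains (Myl3 and Myl2) are made side by side before they separate between chambers, and Mylk3 encodes the kinase named after cardiac muscle.

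The sequencing depth and cell makeup of the cultures bear on every value below. Reads counted on genes numbered 27852412 to 35896018 per culture with negative siRNA and 13739561 to 16186310 with DNMT1 siRNA. Uniquely mapped reads outside annotated exons took 14.6% to 17.5% in the former and 24.4% to 32.0% in the latter, and the part this played in the differences was not tested. Markers of cardiomyocytes (10 genes) were present in every culture and their summed level per length went from 474 to 617 RPKM with negative siRNA to between 1129 and 1439 RPKM with DNMT1 siRNA. RPKM are reads per kilobase of exon, scaled for library size. The summed level of 11 fibroblast and epicardial markers was higher than that of the cardiomyocyte markers in every culture, although the cells were labelled as cardiomyocytes, with 4802 to 7178 RPKM and 3702 to 3922 RPKM in the respective treatments. Of that sum 88.6% to 94.2% came from Col1a1, Col1a2 and Col3a1, and the other 8 genes summed to 418 to 479 RPKM, below the cardiomyocyte markers in every culture. Smooth muscle markers (10 genes) summed to 2591 to 3948 RPKM and to 2244 to 2341 RPKM. Past the limits for DE genes, given below, were 8 of 10 cardiomyocyte markers upward, 3 of 11 fibroblast and epicardial markers downward (1 without negative siRNA replicate 2), 0 of 10 smooth muscle markers (7 lower at an unadjusted p under 0.05 by edgeR, and 1 called lower by DESeq2) and 2 of 7 endothelial markers upward (6 without that replicate). Over all genes 4.26% passed upward and 2.23% downward, and without negative siRNA replicate 2 these shares were 5.42% and 2.78%. The part of these other cell types in the differences below was not tested. The share of all genes at an unadjusted p under 0.05 is not given here. Counts at that limit, here and below, are therefore not read as high or low. Negative siRNA replicate 2 stood apart from the other cultures of its treatment, with 680 normalized counts of Myh11, the smooth muscle myosin heavy chain, against 120 and 179. In bulk RNA a change in the number of cells of a type and a change in RNA per cell cannot be told apart.

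**Figure D1:**
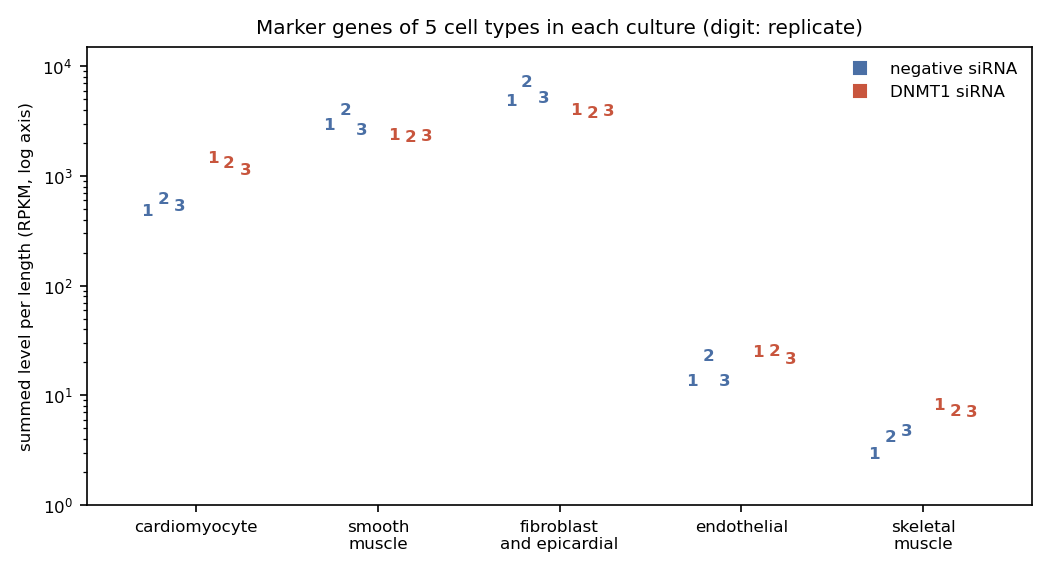
Summed level per length (RPKM, log axis) of the marker genes of 5 cell types, with 1 digit per culture giving its replicate number. The 3 DNMT1 siRNA cultures lie above all negative siRNA cultures for cardiomyocyte and skeletal muscle markers and below them for fibroblast and epicardial and for smooth muscle markers.

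All 10 genes passed the filter on low counts. With DNMT1 siRNA, 5 of the 10 genes (Myl1, Myl2, Myl4, Mylk3 and Mylk4) passed the limits used for DE genes, an FDR below 0.05 and a fold change above 1.5, in the upward direction, beside 4.26% of all 15470 genes tested. None of the 10 passed them in the downward direction by edgeR or DESeq2, beside 2.23% of all genes by edgeR. DESeq2 called 491 genes down among the 16068 that it gave an adjusted p. In 8 of the 10, every DNMT1 siRNA culture had a higher normalized count than every negative siRNA culture, which was the case for 18.3% of all genes, while 17.7% of all genes were lower without overlap. The median log2 fold change was 0.85 over the 10 genes and -0.01 over all genes. Since the genes were picked with this comparison in view, nothing is read from these shares. Negative siRNA replicate 2 was the highest culture of its treatment for 8 of the 10 genes and replicate 1 the lowest for 7, and DNMT1 siRNA replicate 1 was the highest of its treatment for 8. Without negative siRNA replicate 2 the number past both limits was 7, Myl3 and Myl7 being added, beside 5.42% of all genes in that fit. Without DNMT1 siRNA replicate 1 or without replicate 2 it was 3, Myl2 and Myl4 being lost, beside 1.91% and 1.57% of all genes.

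**Figure D2:**
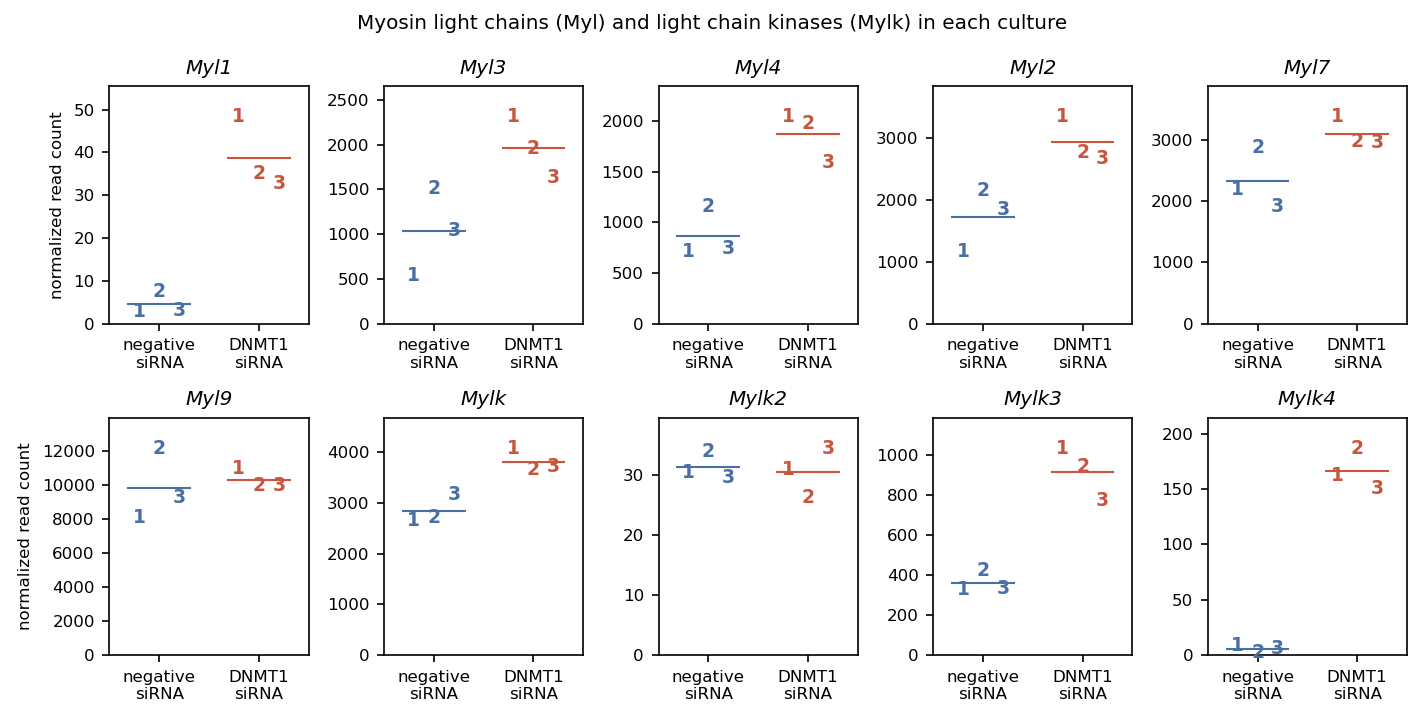
Normalized read counts of the 10 genes in each culture (vertical axes start at 0 and differ between panels), with digits for the replicate number and lines for the treatment means. The 2 treatments overlap only for Myl9 and Mylk2.

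The DNA just before the annotated starts of these genes is shown for 5 members that span the range of responses, from Myl9 with almost no difference to Mylk4 with the widest. Windows of 250 bases before the start were taken from RefSeq (GRCm38.p6) for 9 of the 10 genes, and for 8 of these a window began within 100 bases of a transcript start in the annotation. Both strands were searched for the CArG box bound by serum response factor, the MEF2 site, the GATA site (AGATAA or AGATAG, or either of these with T as the first letter), the MCAT element bound by TEAD factors (CATTCC) and TATAAA. Matches are in capitals in the sequences, which run 5′ to 3′ on the strand of the gene and stop before the first transcribed base annotated nearby.
Myl3 (chr9:110763446-110763645, plus strand): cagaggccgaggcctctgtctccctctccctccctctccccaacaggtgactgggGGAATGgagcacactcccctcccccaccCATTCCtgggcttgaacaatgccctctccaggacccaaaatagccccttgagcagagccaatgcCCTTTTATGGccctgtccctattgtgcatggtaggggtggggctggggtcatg
Myl7 (chr11:5898783-5898982, minus strand): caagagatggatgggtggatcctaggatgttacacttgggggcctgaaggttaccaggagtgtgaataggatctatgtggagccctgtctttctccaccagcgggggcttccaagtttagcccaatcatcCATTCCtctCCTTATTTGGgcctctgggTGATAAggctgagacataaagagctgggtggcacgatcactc
Myl9 (chr2:156775220-156775419, plus strand): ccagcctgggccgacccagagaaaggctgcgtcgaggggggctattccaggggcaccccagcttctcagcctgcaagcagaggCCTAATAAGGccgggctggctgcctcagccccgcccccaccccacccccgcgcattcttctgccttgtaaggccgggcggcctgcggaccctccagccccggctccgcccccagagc
Mylk3 (chr8:85365348-85365547, minus strand): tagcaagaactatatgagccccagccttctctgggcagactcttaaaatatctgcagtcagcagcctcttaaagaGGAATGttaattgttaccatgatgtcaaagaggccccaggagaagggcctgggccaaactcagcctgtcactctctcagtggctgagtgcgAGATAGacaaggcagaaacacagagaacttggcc
Mylk4 (chr13:32783965-32784164, minus strand): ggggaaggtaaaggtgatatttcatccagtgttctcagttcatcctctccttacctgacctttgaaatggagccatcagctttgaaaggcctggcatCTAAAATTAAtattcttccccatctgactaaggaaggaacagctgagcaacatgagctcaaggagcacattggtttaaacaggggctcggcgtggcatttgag
A CArG box stood in the windows of 3 of the 8 genes, Myl3 at -85, Myl7 at -61 and Myl9 at -161 from the RefSeq start, and in 1.47% of all 32841 windows. A MEF2 site was found for Mylk4 at -103 and in 2.92% of all windows. The MCAT element was present for 5 of the 8 genes (Myl1, Myl3, Myl7, Mylk and Mylk3) and in 12.6% of all windows. GATA letters were present for 3 (Myl1, Myl7 and Mylk3) and in 26.5%. The MCAT element of Myl1 lay at -80, downstream of an annotated transcript start 87 bases before the RefSeq start. The 8 genes had 9 such windows, and genes are set here beside shares of windows. TATAAA letters were found for Myl1 and in 12.4% of all windows. No matches overlapped each other in these windows. The number of CpG dinucleotides, the sites that DNMT1 keeps methylated, was 1 in the window of Myl3, 4 in that of Myl7, 16 in that of Myl9, 2 in the shown window of Mylk3 and 5 in that of Mylk4, beside a median of 6 over all windows. The window of Myl4, at the outermost annotated start, held 23 CpG and no match. Each of the 8 genes except Myl7 has further annotated starts whose surroundings were not all searched here. A match is only a run of letters, and binding and methylation at these windows were not analysed here.

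Among the essential light chains, Myl1 (chr1:66924295-66945404, minus strand, ENSMUSG00000061816) encodes the chain of fast skeletal muscle and is made transiently in the embryonic heart. Its reads numbered 5, 11 and 4 in the negative siRNA cultures and 36, 24 and 20 in the smaller DNMT1 siRNA libraries, that is, 2.92, 7.58 and 3.11 normalized counts against 48.3, 35.0 and 32.7. The treatments were far apart, and replicate 2 was the highest of the negative cultures. The log2 fold change was 3.07 (SE 0.42), and the ratio of the pooled counts, scaled for library size, was 8.71 with a 95% exact interval of 5.29 to 15.02 that covers counting error only. With levels of 0.101 and 0.858 RPKM, Myl1 remained a minor transcript in both treatments.

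Myl4 (chr11:104550663-104595753, plus strand, ENSMUSG00000061086), the atrial and embryonic essential chain, had 708, 1155 and 744 normalized counts with negative siRNA and 2041, 1979.5 and 1593 with DNMT1 siRNA. All DNMT1 siRNA cultures were above the highest negative culture, again replicate 2. On the log2 scale the difference was 1.11 (SE 0.19), and it was 1.02 without DNMT1 siRNA replicate 1 and 1.06 without replicate 2, where the FDR limit was missed.

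Myl3 (chr9:110741861-110769798, plus strand, ENSMUSG00000059741), the essential chain of ventricle and slow skeletal muscle, had 535, 1511 and 1039.7 normalized counts with negative siRNA and 2308, 1952 and 1632 with DNMT1 siRNA. The treatments did not overlap, but the negative siRNA cultures ranged widely, from replicate 1 at the bottom to replicate 2. The log2 fold change of 0.94 (SE 0.32) missed the FDR limit, and without negative siRNA replicate 2 it was 1.33 and passed. Exons of Pth1r lie on the other strand within the span of Myl3, and the strand setting used for counting is not given in the sources used here. Pth1r had 272 to 430 reads with negative siRNA and 81 to 128 with DNMT1 siRNA, fewer than Myl3 in every culture.

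The ratio of atrial to ventricular essential chain, Myl4 to Myl3, was 1.32, 0.764 and 0.716 by counts in the negative siRNA cultures and 0.884, 1.01 and 0.976 with DNMT1 siRNA. The DNMT1 siRNA values lay inside the range of the negative ones. The mean log2 ratio differed by 0.09 between treatments, with an SD of 0.49 among the negative cultures, and its sign turned to -0.025 without negative siRNA replicate 2 and -0.072 without replicate 3. As shares of the summed RPKM of the 3 essential chains, Myl3 took 71.1% ± 7.09 (SD, n = 3) and 69.4% ± 1.36, Myl4 took 28.6% ± 7.06 and 29.3% ± 1.48, and Myl1 took 0.310% ± 0.0765 and 1.34% ± 0.129 in the negative and DNMT1 siRNA cultures. The balance of the main essential chains thus differed by less than the spread between cultures.

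Of the regulatory light chains, Myl2 (chr5:122100951-122113472, plus strand, ENSMUSG00000013936), the ventricular chain, had 1169, 2145 and 1834 normalized counts with negative siRNA and 3335, 2768 and 2669 with DNMT1 siRNA. The treatments did not overlap, and replicate 1 was the lowest of the negative cultures. Exons of Ccdc63 overlap Myl2 on the other strand, with 4 to 11 reads. Although the log2 fold change of 0.77 (SE 0.20) passed both limits, it failed at least one of them in 5 of the 6 fits that left out 1 culture, with log2 fold changes of 0.56 and 0.82 without negative siRNA replicates 1 and 3 and of 0.64, 0.81 and 0.82 without DNMT1 siRNA replicates 1, 2 and 3.

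Myl7 (chr11:5896637-5898782, minus strand, ENSMUSG00000020469), the atrial regulatory chain, had 2188, 2871 and 1908 normalized counts with negative siRNA and 3375, 2969 and 2957 with DNMT1 siRNA. The gap between the highest negative culture and the lowest DNMT1 siRNA culture was small. The log2 fold change was 0.42 (SE 0.14), short of both limits, and was 0.60 and past both without negative siRNA replicate 2.

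Myl9 (chr2:156775420-156781658, plus strand, ENSMUSG00000067818), the regulatory chain of smooth muscle and of contractile non-muscle cells, was by level per length the highest of the 10 genes in both treatments. It had 8066, 12140.3 and 9251 normalized counts with negative siRNA and 10978, 9986 and 9970.0 with DNMT1 siRNA. All DNMT1 siRNA cultures fell between the lowest and the highest negative culture, with a log2 fold change of 0.07 (SE 0.14).

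By counts, the ratio of Myl7 to Myl2 was 1.87, 1.34 and 1.04 with negative siRNA and 1.01, 1.07 and 1.11 with DNMT1 siRNA. These ranges overlapped, and the mean log2 ratio differed by -0.37 beside an SD of 0.43 among the negative cultures. The ratio of Myl9 to Myl2 went from 6.90, 5.66 and 5.05 to 3.29, 3.61 and 3.74, with no overlap. Of the summed RPKM of the 3 regulatory chains, Myl9 took 63.7% ± 1.95 (SD, n = 3) in the negative cultures and 56.8% ± 0.736 after DNMT1 siRNA, and Myl2 took 6.59% ± 1.21 and 9.57% ± 0.506. Myl7 took 33.0%, 29.7% and 26.7% in the negative cultures and 33.9%, 33.5% and 33.5% after DNMT1 siRNA. The share of the smooth muscle chain was thus lower, and those of both the ventricular and the atrial chain higher, in every DNMT1 siRNA culture. Of Myl2 and Myl7 alone, Myl2 took 13.9% to 22.5% and 21.5% to 23.0%, which overlapped.

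Among the kinases the differences were spread most widely. Mylk4 (chr13:32700834-32783954, minus strand, ENSMUSG00000044951), a kinase family member of striated muscle, had 15, 3 and 7 reads in the negative siRNA cultures and 121, 128 and 92 in the DNMT1 siRNA cultures. As normalized counts these were 8.75, 2.07 and 5.44 against 162, 187 and 150.5. Here replicate 2 was the lowest of the negative cultures, and no DNMT1 siRNA culture came near them. The log2 fold change was 4.88 (SE 0.35), and the ratio of pooled, scaled counts was 29.7 with a 95% exact interval of 19.8 to 46.6 for counting error only. Over the fits that left out 1 culture the log2 fold change went from 4.49 to 5.46. Per length, Mylk4 moved from the last place among the 10 genes at 0.0325 RPKM to 0.997 RPKM, still below Mylk3.

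Mylk3 (chr8:85324303-85386345, minus strand, ENSMUSG00000031698), the cardiac kinase that phosphorylates Myl2, had 327, 422 and 332 normalized counts with negative siRNA and 1032.5, 944.5 and 770.3 with DNMT1 siRNA. The treatments were well apart and the cultures of each lay close together. The log2 fold change was 1.35 (SE 0.14), with 3.87 RPKM against 9.85 RPKM per length, and every fit that left out 1 culture kept it past both limits.

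Mylk (chr16:34745210-35002420, plus strand, ENSMUSG00000022836), the broadly expressed kinase of smooth muscle and non-muscle cells, had 2654, 2717 and 3156 normalized counts with negative siRNA and 4074, 3649.9 and 3721 with DNMT1 siRNA. There was no overlap. The log2 fold change of 0.42 (SE 0.09) met the FDR limit and fell short of the 1.5-fold limit. In every fit that left out a DNMT1 siRNA culture it missed the FDR limit as well. Mylk makes long, short and telokin products that gene counts do not separate, and antisense genes overlap its exons.

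Mylk2 (chr2:152911352-152923068, plus strand, ENSMUSG00000027470), the skeletal muscle kinase, had 30.3, 33.8 and 29.6 normalized counts with negative siRNA and 30.8, 26.2 and 34.4 with DNMT1 siRNA. The treatments overlapped throughout. A log2 fold change of -0.04 (SE 0.24) was fitted, and the pooled, scaled counts gave a ratio of 0.972 with a 95% exact interval of 0.708 to 1.32.

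Of the summed RPKM of the 4 kinases, Mylk took 72.5% ± 3.72 (SD, n = 3) in the negative cultures and 58.0% ± 2.62 after DNMT1 siRNA. Mylk3 took 24.2% ± 3.54 and 36.5% ± 2.81, and Mylk4 took 0.207% ± 0.138 and 3.71% ± 0.445. The count ratio of Mylk to Mylk3 was 8.12, 6.44 and 9.51 in the negative cultures and 3.95, 3.86 and 4.83 in the DNMT1 siRNA cultures, with no overlap. Mylk3 and Mylk4 thus made up a larger part of the total in every DNMT1 siRNA culture.

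**Figure D3:**
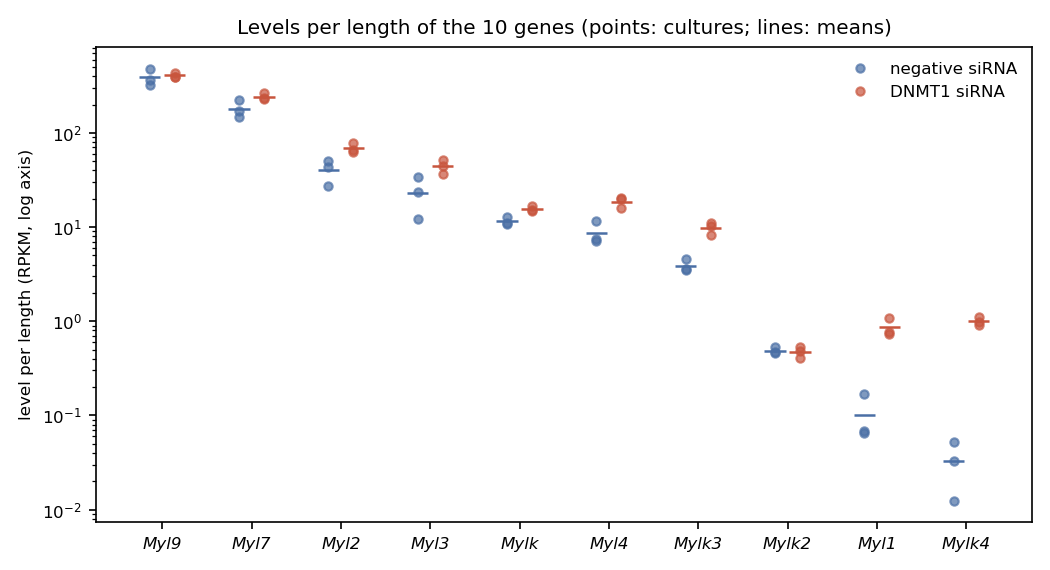
Level per length (RPKM, log axis) of the 10 genes in each culture, ordered by the mean with negative siRNA, with lines for the means. Myl9 and Myl7 lead in both treatments, and Mylk4 and Myl1 lie below Mylk2 with negative siRNA and above it with DNMT1 siRNA.

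Ordered by level per length, the negative siRNA cultures ran Myl9 (389 RPKM), Myl7 (181 RPKM), Myl2 (40.5 RPKM), Myl3 (23.2 RPKM), Mylk (11.6 RPKM), Myl4 (8.63 RPKM), Mylk3 (3.87 RPKM), Mylk2 (0.487 RPKM), Myl1 and Mylk4. The ranges of neighbours from Myl2 down to Myl4 overlapped, and the others were separate. With DNMT1 siRNA the order was Myl9 (409 RPKM), Myl7 (242 RPKM), Myl2 (69.1 RPKM), Myl3 (44.3 RPKM), Myl4 (18.6 RPKM), Mylk (15.6 RPKM), Mylk3, Mylk4, Myl1 and Mylk2 (0.476 RPKM), where only Myl4 with Mylk and Mylk4 with Myl1 overlapped. The atrial chain Myl7 stayed above the ventricular chain Myl2 in both treatments although the cells came from ventricles, while the ventricular chain Myl3 stayed above the atrial chain Myl4. These orders rest on the exon lengths used, and by counts Myl4 exceeded Myl3 in negative siRNA replicate 1 and DNMT1 siRNA replicate 2, with Myl7 at 1.01 to 1.11 times Myl2 after DNMT1 siRNA.

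Set against the mean of the 10 cardiomyocyte markers, which was higher with DNMT1 siRNA, the 10 genes are described in 3 groups. For this each culture's log2 value was taken relative to the mean log2 value of the 10 markers, a scale chosen after the data had been seen. That mean was itself 1.05 higher with DNMT1 siRNA, and 8 of the 10 markers passed both limits upward, beside 4.26% of all genes. The remaining markers, Vcam1 (log2 fold change -0.26) and Tnni1 (-0.18), did not pass and were lower on average. Vcam1, which encodes the protein used for sorting, was lower without overlap between the treatments. Mylk4 (a difference of 4.11, with an SD of 1.32 among the negative cultures), Myl1 (2.16) and Mylk3 (0.29) were still higher than in every negative culture. For Mylk3 this depended on the use of the mean, as its log2 fold change of 1.35 was close to the marker median of 1.33. Myl4 (0.08), Myl3 (-0.01) and Myl2 (-0.25) overlapped between the treatments. These differences also depended on the use of the mean, as the log2 fold changes of 1.11, 0.94 and 0.77 lay below the marker median. Myl7 (-0.62), Mylk (-0.63), Myl9 (-0.96) and Mylk2 (-1.10) were below every negative culture on this scale. A gene without any difference is 1.05 lower on it, by the rise of the marker mean alone, and Myl9 and Mylk2 were close to that. By normalized counts Myl7 and Mylk were higher in every DNMT1 siRNA culture, and they rose less than the marker mean. Without negative siRNA replicate 2 the differences were 3.40 for Mylk4, 2.48 for Myl1, 0.28 for Mylk3, 0.17 for Myl4 and 0.20 for Myl3, whose sign turned, and those of the other genes kept their sign. Skeletal muscle markers (11 genes) summed to 2.90 to 4.65 RPKM against 7.04 to 8.09 RPKM. Beside 4.26% of all genes, 1 of the 4 tested was up-regulated. That gene was Ckm, the creatine kinase of striated muscle, with 112 to 176 reads against 135 to 217 in the smaller libraries and a log2 fold change of 1.33 (SE 0.23). Actn3 was higher without overlap, with a log2 fold change of 0.70 (SE 0.28), and passed both limits without negative siRNA replicate 2. Tnnt3, the fast skeletal troponin T, went the other way, lower without overlap at -0.52 (SE 0.34). Ryr1 overlapped between the treatments, at 0.96 (SE 0.67), and neither of these passed. Of the transcription factors that define the lineage, Myod1 had 0, 0 and 0 reads with negative siRNA and 0, 2 and 2 with DNMT1 siRNA, and Myog had 2, 0 and 0 against 2, 1 and 0. Their part in the differences of Myl1 and Mylk4 was not tested.

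**Figure D4:**
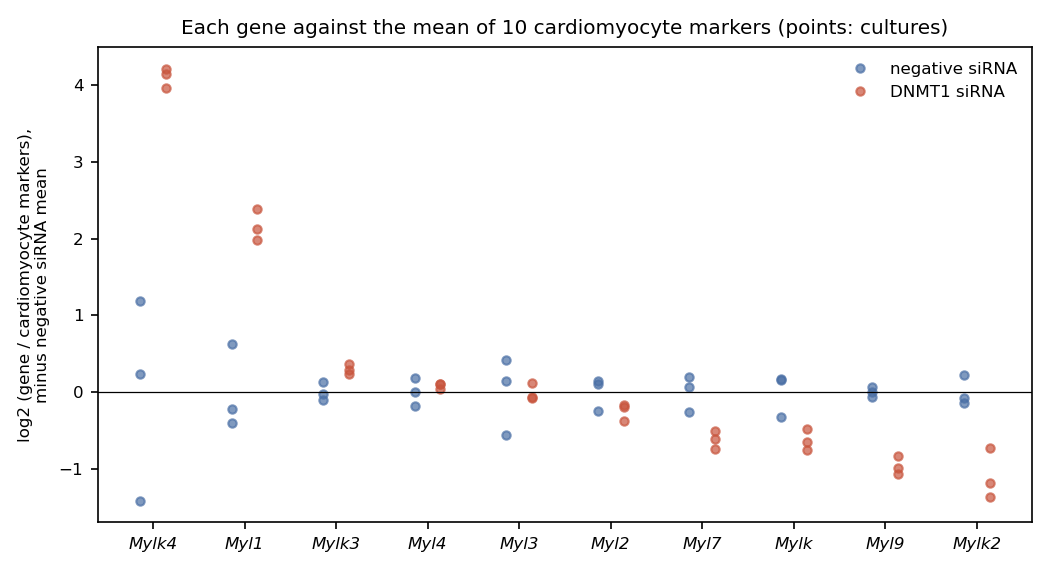
Log2 level of each gene relative to the mean of 10 cardiomyocyte markers, minus the mean of the negative siRNA cultures, with 1 point per culture. Mylk4, Myl1 and Mylk3 lie above the negative cultures, Myl4, Myl3 and Myl2 among them, and Myl7, Mylk, Myl9 and Mylk2 below. The marker mean was 1.05 higher with DNMT1 siRNA, so that a gene without any difference lies below.

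The genes whose pattern over the 6 cultures was nearest differed between members. Likeness was measured as the Euclidean distance of log2 CPM centred for each gene, for the 4 members with the largest fold changes. Nearest to Mylk3 were Tnnc1 (distance 0.13), Klhl31 (0.13) and Nebl (0.19), genes of the sarcomere or of muscle. Nearest to Myl4 were Pln (0.16), the inhibitor of the calcium pump of the sarcoplasmic reticulum, Fam78a (0.19) and Adrb3 (0.21). Nearest to Myl1 were Thbs4 (0.40), Sprr2a3 (0.52) and Cyp1a1 (0.74). No gene followed Mylk4 closely, the nearest being the short RNAs Rpph1 (1.58), Rprl3 (1.84) and Rn7sk (1.86), the first 2 of which may share reads. These RNAs, which carry no poly(A) tail, had log2 fold changes of 4.33, 4.33 and 3.29 in poly(A)-selected libraries, and the part of such a library difference in the change of Mylk4 was not tested.

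The rest of the machinery that sets light chain phosphorylation was taken as a list, chosen with earlier results of these data known. Of 24 tested genes of that pathway, none was up-regulated and 1 (4.17%), Pak1, was down-regulated, beside 4.26% up and 2.23% down over all genes. Without overlap, 12.5% of them were higher and 25.0% lower, beside 18.3% and 17.7% of all genes. At an unadjusted p under 0.05 in edgeR's test, 2 were higher and 6 lower, and no trend is read from this without the share over all genes. DESeq2 and edgeR's exact test gave the same counts of 0 up and 1 down. Over all genes the exact test called 5.42% up and 2.98% down. DESeq2 called 652 genes up and 491 down among the 16068 that it gave an adjusted p. The median log2 fold change of the 24 pathway genes was -0.03. Pak1, a kinase that can act on Mylk and on regulatory chains, had 429, 560 and 425 normalized counts with negative siRNA and 249, 249 and 255 with DNMT1 siRNA. The treatments did not overlap, with a log2 difference of -0.91 (SE 0.13) and an adjusted p of 0.00484 by edgeR's quasi-likelihood test over all genes. The remaining 9 of the 10 genes in the list of other kinases did not pass.

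None of 4 other light chains passed both limits by edgeR or DESeq2, with 1 higher at an unadjusted p under 0.05. Myl12a, the most abundant of them and a non-muscle regulatory chain, had a log2 fold change of 0.12 (SE 0.06), and Myl12b had 0.32 (SE 0.07), which met the FDR limit (edgeR adjusted p = 0.0199) but not the fold limit. Myl12a and Myl12b are near-identical copies, so that the split of reads between them is uncertain. None of 7 genes of myosin phosphatase and its inhibitors passed both by either tool, with 3 lower at an unadjusted p under 0.05. The phosphatase catalytic subunit Ppp1cb had -0.17 (SE 0.06), and the inhibitor Ppp1r14b had -0.46 (SE 0.12, edgeR adjusted p = 0.0394). None of 3 calmodulin genes passed by either tool, with 1 lower at an unadjusted p under 0.05 and log2 fold changes of -0.25 (SE 0.08) for Calm2 and -0.01 (SE 0.07) for Calm3.

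**Figure D5:**
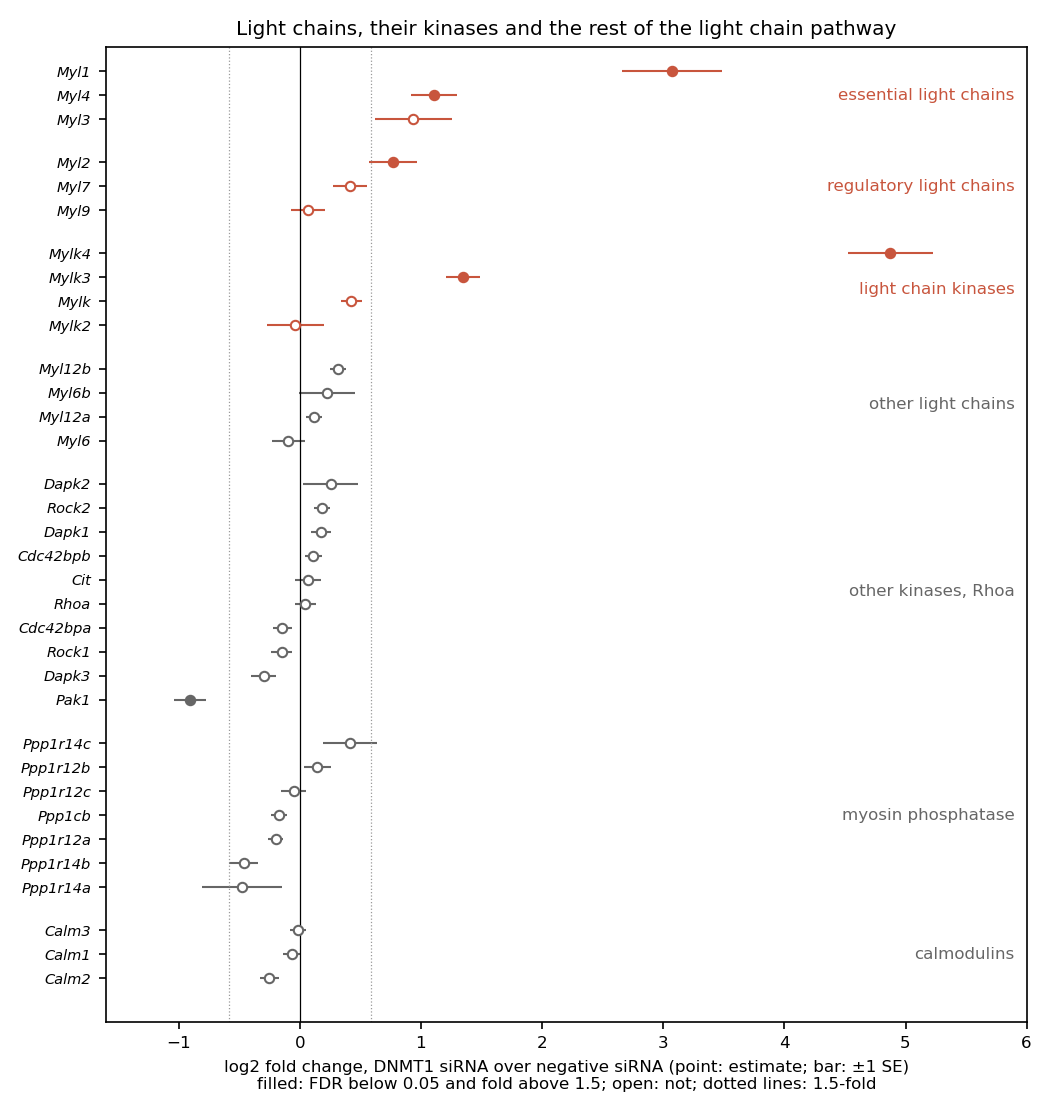
Log2 fold changes (horizontal axis, with SE bars) of the 10 chosen genes in red and of 24 other genes of light chain phosphorylation in grey. Filled points passed both limits, and Pak1 is the grey point that did.

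The myosin heavy chains, which carry the light chains, gave the following counts. Of 10 tested heavy chains 2 were up-regulated and none down-regulated, with 4 higher and 1 lower at an unadjusted p under 0.05 (edgeR), and with 4 up and 0 down by DESeq2. Over all genes 4.26% were up-regulated and 2.23% down-regulated by edgeR. DESeq2 called 652 genes up and 491 down among the 16068 that it gave an adjusted p. Of the heavy chains 40.0% were higher without overlap and none lower, beside 18.3% and 17.7% of all genes. Myh6, the heavy chain of atrium and of adult mouse ventricle, stood 1.41 higher on the log2 scale (SE 0.18, edgeR adjusted p = 0.00316), and the fast skeletal chain Myh1 stood 1.29 higher (SE 0.17, edgeR adjusted p = 0.00322). Myh7, the heavy chain of fetal ventricle, is added here after its values were seen and had 945, 3496 and 1267 normalized counts with negative siRNA against 2388, 2300.1 and 1874 with DNMT1 siRNA, and its log2 fold change of 0.20 (SE 0.42) did not pass. Replicate 2 again stood alone, and without it 7 of the 10 heavy chains passed both limits upward, Myh7 among them, beside 5.42% of all genes in that fit. Among chamber markers, 1 of 8 atrial genes was up-regulated (Nppa) and 1 down-regulated (Dkk3), and of 7 ventricular genes 1 was up-regulated (Gja1). These counts stand beside 4.26% up and 2.23% down over all genes.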

How the data were processed

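RNA-Seq was performed by the authors on poly(A) RNA with a non-directional kit, as single 75-base reads in 1 pooled run. Per the labels, reads were checked with FastQC, mapped to mm10 with TopHat2 and counted with HTSeq, and the deposited values are raw counts per Ensembl gene without normalization. Depth is given in the report. Counts of genes were normalized by TMM and fitted with edgeR 4.0.16 (quasi-likelihood F test, R 4.3.3) after filterByExpr (minimum count 10, minimum total 15), with FDR by Benjamini-Hochberg over 15470 genes. A gene counted as DE when its FDR lay below 0.05 and its fold change above 1.5. Normalized counts are counts divided by the relative effective library size. The GENCODE annotation (GRCm38) gave exon lengths and positions, and promoter windows came from RefSeq (GRCm38.p6). Scripts were tested on simulated data. The genes and lists were chosen with earlier results of these data known. All 10 members are named, and of other lists each called gene or, with none, the 2 highest in level. For the 4 members with the largest fold changes the 3 nearest genes are named.

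Alternatives were other normalizations (RLE, upper quartile), DESeq2 1.42.0, edgeR's exact test, other filters, a replicate block and leaving out each culture. Pairs of cultures were compared by chi-square on their counts (2.82 to 61.7 per degree of freedom), so that none was a copy. Since nothing says that cultures came from separate litters, p-values measure the spread between these samples. Fold changes of the authors' own comparisons were not used.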

Additional observations from a re-analysis of the deposited data

How the results depend on the processing

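Of 128 log2 fold changes of the 10 genes under the alternatives, 116 kept their side of the limits, 8 fell short, 4 newly passed, and 0 that passed turned. Of genes that never passed, Myl9 went from -0.05 to 0.25 and Mylk2 from -0.14 to 0.06. The number of the 10 genes past both limits upward was 5 with TMM, RLE, upper quartile and DESeq2, 6 with the exact test and with no filter (Myl3 added), and 3 with at least 10 counts in every sample, where Myl1 and Mylk4 left the test. Of all genes 4.26% were up with TMM and with RLE and 4.47% with upper quartile. DESeq2 called 652 up, which is 2.05% of 31771 genes, but only 16068 of these had an adjusted p. The exact test gave 5.42%, no filter 3.13% and the filter on every sample 4.4%. Without the filter the adjusted p of Myl3 was 1.44e-18 by edgeR's quasi-likelihood test, against 0.0929 in the main fit. The p-values of the unfiltered fit are not read here, although its calls are included in the counts of this section, with Myl3 among the 4 values that newly passed. The number of the 10 genes past both was between 3 and 7 when 1 culture was left out, beside 1.57% to 5.42% of all genes. With the replicate block it was 4, Myl2 being lost at a log2 fold change of 0.81. In that fit the number of all genes up was 513 (3.32%) and down 285 (1.84%). Same-numbered cultures did not deviate together (r from -0.021 to 0.027), and the numbers were not taken as pairs. None of the 10 genes was down under any alternative, beside 0.688% to 3.1% of all genes. The pathway list stayed at 0 up, and its number down went from 1 to 2 when 1 culture was left out (Ppp1r14a beside Pak1 without negative siRNA replicate 1). The difference in the log2 ratio of Myl4 to Myl3 went from -0.07 to 0.37 with 1 culture left out, being -0.025 and -0.072 without negative siRNA replicates 2 and 3. Over all genes, the main fit called 659 up and 345 down, no filter 994 and 701, and leaving out a DNMT1 siRNA culture 255 to 316 and 112 to 146, and the cause was not tested. Depth limits Mylk4 and Myl1, which rest on 25 and 20 reads over the 3 negative siRNA cultures. With 3 cultures per treatment, no two-sided permutation test could give a p below 0.1.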
